A study of Rattus norvegicus with 8 samples.

Results

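Imprinted genes known to be active in the hypothalamus were followed in rats exposed to vaporized cannabis and in air controls. The set holds Peg3, Nnat, Gnas, Ndn, Magel2, Snrpn, Dlk1, Meg3, Grb10 and Impact, and its rows were found by gene symbol. Of the 10 genes, 8 had rows, with 49 of the 98356 alternative polyadenylation (APA) sites and 8 of the 18003 gene symbols. No row carried the symbols Snrpn or Meg3. RefSeq lists RGD1566401 as an older symbol of Meg3, and that symbol had 23 sites, so its values are given beside the members without being counted among them. Snurf, the upstream reading frame of the transcript that also encodes Snrpn, is treated in the same way.

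The hypothalamus was dissected from male Long-Evans rats 1 hr after a 10 min exposure, and food was removed in that hour. Cannabis rats breathed vapor of cannabis plant matter with 7.8% THC and 0.5% CBD, whereas air controls sat in the same kind of chamber with an empty vaporizer. There were 4 libraries per group, air control replicates 1, 2, 3 and 4 and cannabis replicates 1, 2, 3 and 5. RNA was read by WTTS-Seq, which sequences the 3′ ends of polyadenylated RNA, so a read marks 1 APA site and levels need no correction for transcript length. Values are normalized counts, that is, the reads of a library scaled by its size factor.

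An imprinted gene is expressed mainly from the copy inherited from 1 parent, and the other copy is kept silent by marks, such as DNA methylation, that were set in the germ line. Many imprinted genes are abundant in the brain, and in the hypothalamus several of them bear on feeding, growth and hormone release. In people, loss of the paternally expressed genes around Ndn, Magel2 and Snrpn causes Prader-Willi syndrome, in which feeding is disturbed. The reads were not assigned to parental alleles, so the values are the sum of both copies.

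The libraries held 1159811 (air control replicate 4) to 3706778 (cannabis replicate 2) reads on sites. Air control replicates 1 and 4 stood apart. Among sites with a mean of at least 10 normalized counts, 128 in air control replicate 1 and 183 in air control replicate 4 were more than 3 times as high as in any other library, against 3 to 23 in each of the other 6 libraries. Summed markers of neurons lay between 2705 and 3317 in air controls and between 2628 and 3071 in cannabis rats. The ranges also overlapped for astrocytes (2772 to 4153 and 3162 to 5108), oligodendrocytes (37158 to 50534 and 29631 to 47515) and microglia (496 to 685 and 500 to 632). They overlapped likewise for choroid plexus (3.97 to 26.3 and 11.2 to 43.8), pituitary (122 to 821 and 196 to 702) and thalamus (363 to 465 and 392 to 506). Rows existed for 4 of 5 choroid plexus genes, of which Ttr, Folr1 and Kcne2 were at 0 in some library. Of 5 pituitary genes 3 had rows, and Gh1 and Prl had none. The hypothalamic list was expressed in every library and did not overlap between the groups, at 3327 to 5687 in air controls and 7516 to 9576 in cannabis rats. Its magnocellular genes Avp and Oxt summed to 1549 to 3971 and to 4952 to 7378, and the other 11 genes of the list overlapped, at 1511 to 1836 and 1783 to 2564. Endothelial markers also did not overlap, at 81.1 to 88.0 and 93.0 to 115, but only 3 of the 5 listed genes had rows. Of these, 0 passed P under 0.01 in limma, and Cldn5 was at 0 in some library. Over all single gene totals, 1.98% had groups that did not overlap. Midbrain dopamine markers were at 699 to 920 in air controls and at 179 to 353 in cannabis rats. In bulk tissue, fewer cells of a type and less RNA per cell cannot be told apart, and the part of dissection in the values below was not tested.

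No imprinted member passed the test for a difference between cannabis rats and air controls in its gene total, the sum over all its sites. At P under 0.01 in limma, 0 of the 8 members were called, against 0.278% of all gene totals, and 0 were called at an adjusted P under 0.1, against 0.00555% of all gene totals. No member passed P under 0.05 either, against 2.41% of all gene totals. edgeR on the recovered reads called 0 members at 0.01, against 0.30% of all gene totals, and 0 at 0.05, against 2.52%. Without both air control replicates 1 and 4 the count at 0.01 in limma was also 0, against 21 of 18003 gene totals. The 2 groups overlapped in every member, whereas 1.98% of all gene totals had groups that did not overlap. Of the 8 log2 fold changes, 5 were above 0 and 3 below, with a median of 0.15 against 0.05 over all gene totals. All adjusted P values of the members were 0.999.

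The members spanned a wide range of abundance. Nnat and Gnas were the most abundant, with means over the 8 libraries of 10628 and 8577 normalized counts, and RGD1566401 followed at 4536. Peg3 had a mean of 637, Ndn 483, Snurf 361 and Impact 287, and the least abundant were Dlk1 at 81.7, Grb10 at 79.9 and Magel2 at 18.4. Between neighbours in this order, the ranges over libraries were separate for Gnas and RGD1566401, for RGD1566401 and Peg3, and for Grb10 and Magel2. All the other neighbours overlapped. Nnat was above Gnas in 7 of the 8 libraries, the exception being cannabis replicate 1.

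**Figure D1:**
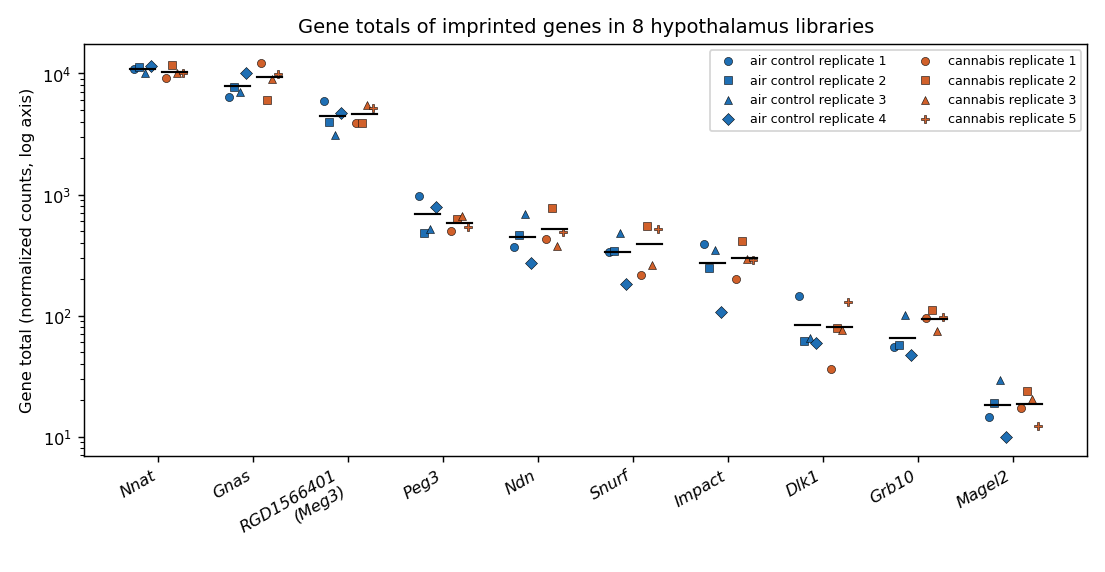
Gene totals in normalized counts on a log axis, 1 point per library, blue for air controls and orange for cannabis rats, with a black line at the mean of each group (n = 4). Points of the 2 groups overlap in all 10 genes, from Nnat at 9158 to 11715 down to Magel2 at 9.93 to 29.5.

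Nnat encodes neuronatin, a small membrane protein of the endoplasmic reticulum of neurons and endocrine cells. Its totals were 10945, 11259, 10170.5 and 11586 in air control replicates 1 to 4, and 9158, 11715, 10070.5 and 10120.1 in cannabis replicates 1, 2, 3 and 5. It was the steadiest member, and its highest library exceeded its lowest by 1.28-fold. The means were 10990 ± 606 (SD, n = 4) in air controls and 10266 ± 1062 (SD, n = 4) in cannabis rats, a log2 fold change of -0.10 ± 0.20 (SE). The 95% interval of the ratio was 0.689 to 1.26, and P was 0.314 in an exact two-sided permutation test.

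Gnas encodes the alpha subunit of the stimulatory G protein, which couples receptors to cAMP, and the locus makes further products from other first exons. Its totals were 6440.3, 7717, 6965 and 10174 in air controls and 12272, 6072, 9078 and 9900 in cannabis rats. The highest and the lowest library were both cannabis rats. The means were 7824 ± 1652 and 9330 ± 2560 (SD, n = 4 each), with a log2 fold change of 0.23 ± 0.26 (SE), a 95% interval of the ratio of 0.803 to 1.72 and P = 0.429 by exact permutation.

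Grb10 encodes an adaptor that binds insulin and IGF receptors and dampens their signal. Its totals were 54.8, 57.5, 101 and 47.7 in air controls and 95.6, 111, 74.8 and 96.8 in cannabis rats. All cannabis libraries were above 3 of the 4 air controls, and air control replicate 3 lay among them. The means were 65.3 ± 24.4 and 94.5 ± 14.9 (SD, n = 4 each). The log2 fold change of 0.58 ± 0.27 (SE), the farthest from 0 among the members, had a 95% interval of -0.01 to 1.16, P = 0.0532 in limma and P = 0.114 by exact permutation. Without air control replicate 3 it was 0.80, with an unadjusted P of 0.0090 in limma, and Grb10 was then the 1 member of 8 past the threshold, against 0.467% of all gene totals in that fit. The gene had 24 to 167 reads per library.

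Ndn and Magel2 encode MAGE-family proteins and are neighbours in the Prader-Willi region. Ndn, whose product necdin is abundant in neurons that no longer divide, had totals of 368, 463, 692 and 274 in air controls and 430, 774, 375 and 487 in cannabis rats. The cannabis values lay on both sides of the air control median, and the means were 450 ± 179 and 516 ± 178 (SD, n = 4 each). The log2 fold change was 0.23 ± 0.29 (SE), with P = 0.514 by exact permutation. It was 0.013 without cannabis replicate 2, 0.017 without air control replicate 4 and 0.46 without air control replicate 3.

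Magel2, which acts with a ubiquitin ligase in protein recycling and is expressed in hypothalamic neurons, had totals of 14.6, 19.2, 29.5 and 9.93 in air controls and 17.4, 23.9, 20.7 and 12.3 in cannabis rats. These rested on 5 to 44 reads per library. The means of 18.3 ± 8.38 and 18.6 ± 4.96 (SD, n = 4 each) gave a log2 fold change of 0.08 ± 0.39 (SE), and the 95% interval of the ratio, 0.595 to 1.88, was wide.

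Impact encodes an inhibitor of the kinase GCN2, which slows translation when amino acids are scarce. Its totals were 393, 249, 346 and 107 in air controls and 202, 417, 292 and 288 in cannabis rats. The means were 274 ± 126 and 300 ± 88.1 (SD, n = 4 each), with a log2 fold change of 0.24 ± 0.36 (SE) and P = 0.714 by exact permutation. Air control replicate 4 was the low value, and without it the log2 fold change was -0.16.

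Dlk1 encodes a transmembrane protein related to Notch ligands. Its totals were 145, 62.2, 65.8 and 59.6 in air controls and 36.0, 78.4, 76.8 and 129 in cannabis rats. Air control replicate 1 and cannabis replicate 5 were high and cannabis replicate 1 was low, a 4.04-fold range that was the widest among the members. The means were 83.3 ± 41.5 and 80.0 ± 38.1 (SD, n = 4 each). The log2 fold change was -0.08 ± 0.38 (SE), and it was 0.22 without air control replicate 1 and 0.25 without cannabis replicate 1.

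Peg3 encodes a zinc finger protein that is expressed from the paternal copy in hypothalamic neurons among other cells. Its totals were 980, 481, 519 and 782 in air controls and 499, 622, 670 and 542 in cannabis rats. The cannabis libraries lay within the air control range. The means were 691 ± 235 and 584 ± 77.1 (SD, n = 4 each), with a log2 fold change of -0.19 ± 0.24 (SE) and P = 0.514 by exact permutation. Without both air control replicates 1 and 4, which were the high ones, the log2 fold change was 0.21.

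RGD1566401, the symbol under which the Meg3 noncoding RNA was found, had totals of 5972, 3965, 3125 and 4707 in air controls and 3908, 3929, 5490 and 5196 in cannabis rats. The means were 4442 ± 1207 and 4631 ± 831 (SD, n = 4 each), a log2 fold change of 0.08 ± 0.24 (SE) with P = 0.714 by exact permutation. None of its 23 sites passed P under 0.01 in limma in level or in share, against 0.381% of all site levels and 0.389% of all site shares. In level 0 passed P under 0.05, against 3.03% of all sites. Its most read site, intronic at chr6:133677474-133679188 (+) in Rnor_6.0, held means of 1763 ± 607 and 1812 ± 593 (SD, n = 4 each).

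**Figure D2:**
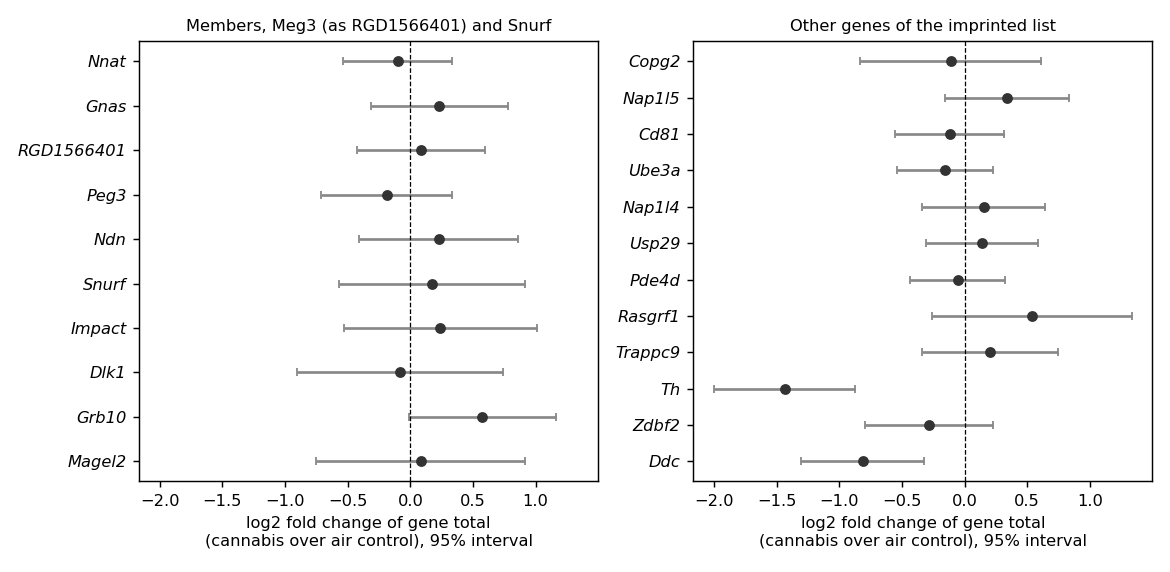
Log2 fold change of the gene total, cannabis over air control (n = 4 each), with the 95% interval from limma. The left panel shows the 8 members, RGD1566401 and Snurf, whose intervals all include 0. The right panel shows other genes described as imprinted or lying beside such genes, of which Th at -1.43 and Ddc at -0.81 lie below 0.

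Several members had their extreme values in the same libraries. Air control replicate 4, with the fewest reads, was the lowest library for Ndn, Impact, Grb10 and Magel2, and for Snurf. Cannabis replicate 2, with the most reads, was the highest for Nnat, Ndn, Impact and Grb10, and for Snurf. Relative to the median of the 8 libraries, Impact was at -1.44 in air control replicate 4 and at 0.52 in cannabis replicate 2 on the log2 scale, and Ndn was at -0.70 and 0.79. Gnas went the other way and was at 0.28 and -0.47 in these libraries, and so did RGD1566401, at 0.12 and -0.14. Peg3 and Nnat were above their medians in both libraries, at 0.43 and 0.13 in air control replicate 4. The share of all gene totals that were extreme in these libraries is not given here. Libraries between these in depth did not all follow the order of reads. In air control replicate 1, with 3271380 reads, Ndn was at -0.28, Magel2 at -0.32 and Grb10 at -0.64. Snurf was at -0.01 there and Impact at 0.44. The values are normalized to size factors, and the part of depth in these levels was not tested. Over 12114 gene totals, the deviations of cannabis replicate 1 from its group mean were most like those of air control replicate 4 (r = 0.49), and those of cannabis replicate 2 were most like those of air control replicate 3 (r = 0.37). These r values are across genes, which are not independent replicates.

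**Figure D3:**
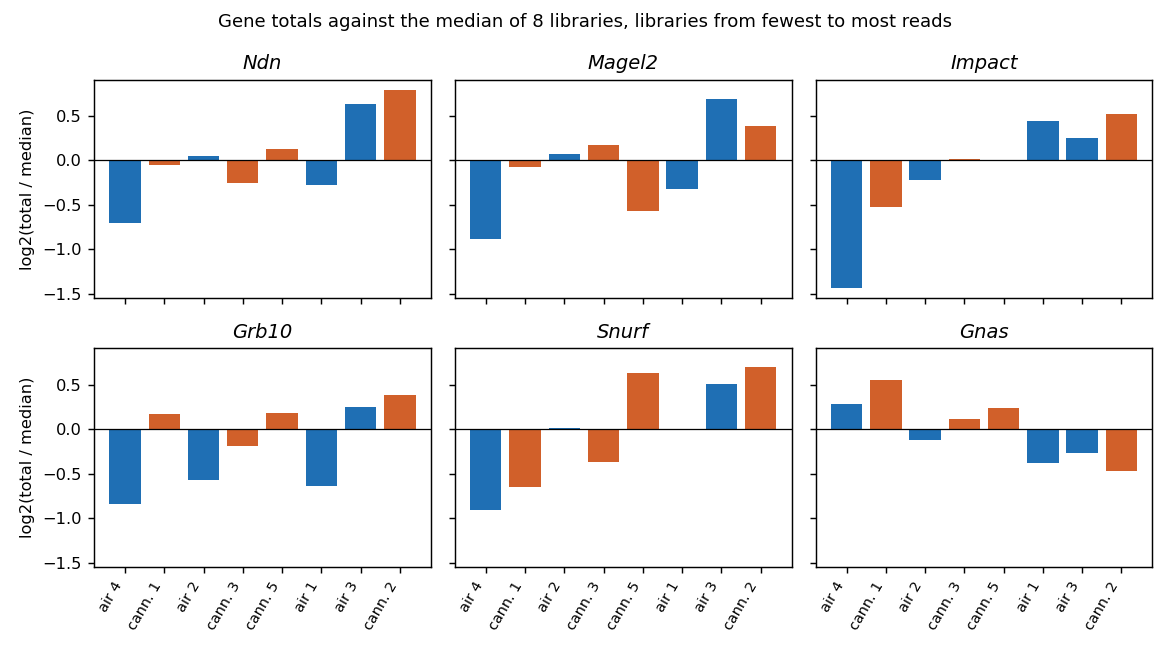
Log2 ratio of each gene total to its median over 8 libraries, with libraries ordered from the fewest reads (1159811, air control replicate 4) to the most (3706778, cannabis replicate 2). Blue bars are air controls and orange bars are cannabis rats. Ndn, Magel2, Impact, Grb10 and Snurf are lowest in the library with the fewest reads, and Gnas is above its median there. Peg3, Nnat and RGD1566401, which are not drawn, are also above their medians there.

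The 49 sites of the members were tested one by one. In level, 0 of 49 were called at P under 0.01 in limma, against 0.381% of all sites, and 0 at an adjusted P under 0.1, against 0.00102% of all sites. At P under 0.05, 1 of the 49 sites passed in limma, against 3.03% of all sites. edgeR passed 6 of the 49 at 0.05, against 2.91% of all sites, and called 0 at 0.01, against 0.526%. Log2 fold changes were above 0 in 24 sites and below in 25. In the share of the gene's reads, 1 of 47 sites was called at P under 0.01, against 0.389% of all sites of genes with at least 2 sites, and 0 at an adjusted P under 0.1, against 0.00% of these sites. The groups did not overlap in 1 of 49 sites, against 2.0% of all sites. Of the 49 sites, 27 had a mean of at least 10 normalized counts. The most read sites of the 8 members held 84.7% of the 180357 reads of the members.

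The exception in both counts was a minor site of Peg3, its fifteenth by level, which held 27 reads in all. Its values were 2.19, 0, 0.671 and 0 in air controls and 2.48, 2.66, 4.92 and 9.22 in cannabis rats. Every cannabis library was above every air control, but the lowest cannabis value exceeded the highest air control by less than 1 read. The mean share of Peg3 was 0.0883% ± 0.109 and 0.84% ± 0.588 (SD, n = 4 each). The log2 fold change of the share was 1.99, with P = 0.0085 and an adjusted P of 1.00 in limma and P = 0.0286 by exact permutation. Leaving out any single library other than cannabis replicates 1 and 2 took the share back over the threshold in limma, with log2 fold changes from 1.64 (cannabis replicate 5 left out) to 2.16 (air control replicate 1 left out). In level the log2 fold change was 1.79 with P = 0.0112 in limma, and the exact permutation test gave 0.0286, the smallest P it can give with 4 against 4. The level passed P under 0.01 in limma without air control replicate 1 (log2 fold change 2.15) and without cannabis replicate 1 (1.99).

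Nearly all Nnat transcripts ended at 1 site, a distal site at chr3:154046252-154046735 (+) in Rnor_6.0, the build used for all positions here. That site held 94.8% to 99.1% of the reads of Nnat, and the lowest share was in air control replicate 2. In that library the next most read Nnat site had 548 normalized counts, against 23.8 to 96.3 in the other libraries. The level of the main site was 10756 ± 582 in air controls and 10139 ± 1074 in cannabis rats (SD, n = 4 each), with P = 0.371 by exact permutation.

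Gnas transcripts ended mainly at 2 distal sites. The downstream one, at chr3:172434795-172435456 (+), held 71.2% ± 3.59 of the gene in air controls and 69.8% ± 7.33 in cannabis rats (SD, n = 4 each). Its levels were 4472, 5200, 5030 and 7700 in air controls and 9224, 3592, 6719 and 7032 in cannabis rats. The log2 fold change of its level was 0.20 ± 0.22 (SE), with P = 0.600 by exact permutation, and it was 0.015 without cannabis replicate 1 and 0.47 without cannabis replicate 2. The ratio of this site to the upstream distal one ranged from 1.58 in cannabis replicate 2 to 4.12 in cannabis replicate 1, so the widest difference in site use lay within the cannabis group.

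The upstream distal site of Gnas, at chr3:172428421-172428937 (+) and 5.86 kb from the downstream one, was less variable. Its levels were 1627, 2181, 1687 and 1873 in air controls and 2239, 2270, 2069 and 2552 in cannabis rats. All cannabis libraries were above 3 of the 4 air controls, and 3 of them were above all. The means were 1842 ± 249 and 2283 ± 200 (SD, n = 4 each), with a log2 fold change of 0.31 ± 0.18 (SE), P = 0.0977 in limma and P = 0.0571 by exact permutation. An intronic site at chr3:172423415-172423674 (+) had 329 ± 141 and 349 ± 250, and air control replicate 4 and cannabis replicate 1 were high there, at 532 and 718. These 2 Gnas sites were chosen after their values were seen. Of the minor Gnas sites, the one next in level had 17.6 ± 5.57 and 36.5 ± 16.9 (SD, n = 4 each), a log2 fold change of 0.92 ± 0.47 (SE) with P = 0.0658 in limma and P = 0.114 by exact permutation.

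**Figure D4:**
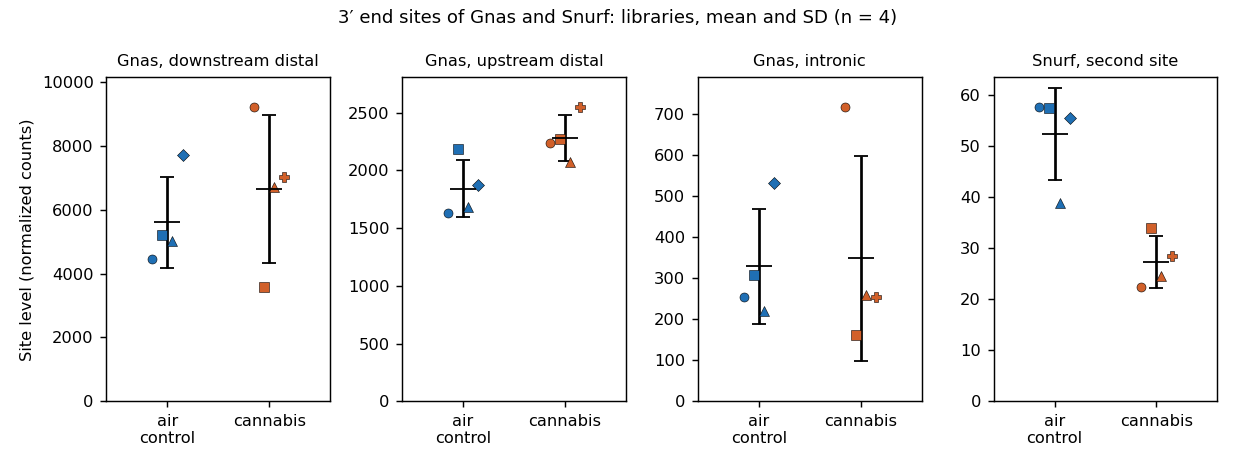
Level of the 3 most read Gnas sites and of the second Snurf site, in normalized counts from 0, with a point per library (blue air controls, orange cannabis rats) and the mean and SD of each group (n = 4). The groups overlap at the 3 Gnas sites, and at the Snurf site the air controls lie at 38.9 to 57.8 and the cannabis rats at 22.4 to 33.9.

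Peg3 and Impact differed widely among libraries in where their transcripts ended, and the extreme libraries were air controls. The most read Peg3 site, exonic at chr1:70235635-70235917 (+), had levels of 216, 148, 118 and 431 in air controls and 227, 159, 226 and 169 in cannabis rats. It was highest in air control replicate 4, where 44.9% (95% Wilson interval 40.1 to 49.9) of the reads of Peg3 ended elsewhere. In air control replicate 1 that percentage was 77.9% (75.6 to 80.1), and in cannabis rats it was from 54.5% to 74.4%. The log2 fold change of the level of this site was -0.06 ± 0.35 (SE). Peg3 site 10, which had 13.7 ± 11.7 in air controls and 8.37 ± 7.10 in cannabis rats (SD, n = 4 each), had a log2 fold change of -0.95 with P = 0.207 in limma and P = 0.429 by exact permutation, and it was -0.073 without cannabis replicate 1.

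The most read Impact site, distal at chr18:4346712-4347047 (+), had levels of 167, 227, 328 and 81.4 in air controls and 165, 391, 259 and 237 in cannabis rats, with a log2 fold change of 0.49 ± 0.37 (SE). In air control replicate 1, 57.4% of the reads of Impact lay off this site, against 5.23% to 24.1% in the other 7 libraries. Impact site 3, for example, had 77.5 in air control replicate 1 and from 3.99 to 9.93 in the others. Its log2 fold change of -0.86 ± 0.67 (SE) was 0.01 without that library. Air control replicate 1 was the highest library at 10 of the 19 secondary sites of the members with a mean of at least 10 normalized counts, 7 of Peg3 and 3 of Impact, against 13.6% of the 6649 such sites in all genes. It also had the highest median percentage of reads off the most read site over 3044 genes, 24.2% against 19.6% to 21.3% in the other libraries. The part of the quality of this library in these values was not tested.

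**Figure D5:**
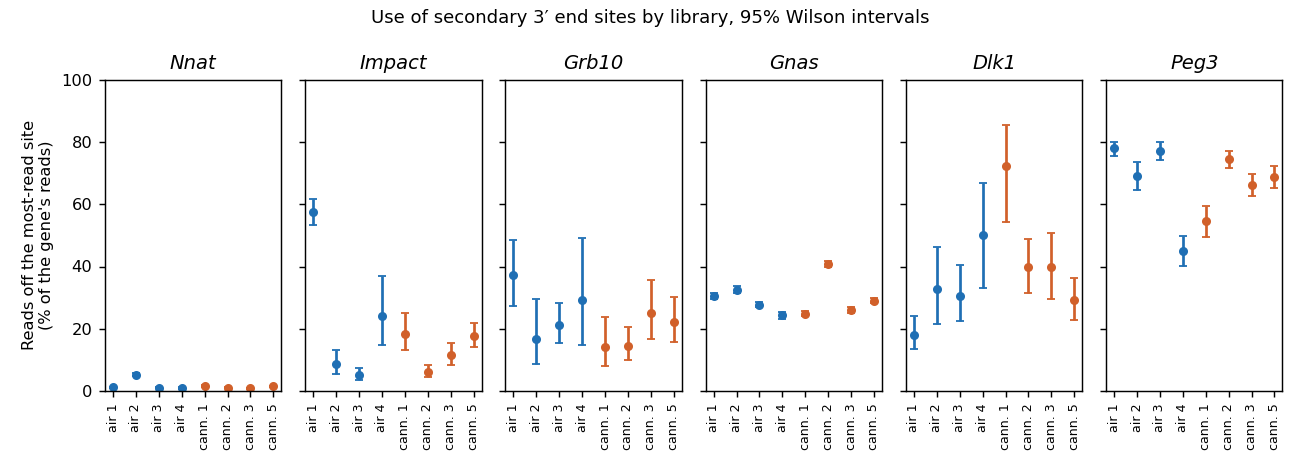
Percentage of the reads of a gene that end off its most read site, by library, with 95% Wilson intervals that cover counting error only (blue air controls, orange cannabis rats). Impact stands at 57.4% in air control replicate 1 and at 24.1% or less elsewhere, and Dlk1 ranges from 18.1% to 72.4%.

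The most read Dlk1 site had levels of 119, 41.9, 45.7 and 29.8 in air controls and 9.93, 47.2, 46.2 and 91.4 in cannabis rats. It was lowest in cannabis replicate 1, where 72.4% of 29 Dlk1 reads ended elsewhere, and its log2 fold change was -0.42 ± 0.54 (SE). The most read Grb10 site held most of that gene and followed its total, with 34.4, 47.9, 79.9 and 33.8 in air controls and 82.0, 94.99, 56.1 and 75.3 in cannabis rats. The means of this Grb10 site were 49.0 ± 21.6 and 77.1 ± 16.2 (SD, n = 4 each), with a log2 fold change of 0.71 ± 0.38 (SE) and P = 0.0857 by exact permutation. Ndn, at chr1:122983308-122983638 (+) and distal, and Magel2 each had 1 site.

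Snurf had totals of 336, 341, 481 and 181 in air controls and 216, 548, 262 and 522 in cannabis rats, with a log2 fold change of 0.17 ± 0.35 (SE) and P = 0.714 by exact permutation. Its second site stood apart from the total and is given after its values were seen. That site had 57.8, 57.5, 38.9 and 55.6 in air controls and 22.4, 33.9, 24.6 and 28.4 in cannabis rats, so the groups did not overlap. The means were 52.4 ± 9.05 and 27.3 ± 5.04 (SD, n = 4 each), with a log2 fold change of -0.92 ± 0.38 (SE), P = 0.0247 and an adjusted P of 1.00 in limma, and P = 0.0286 by exact permutation. The most read Snurf site was placed at chr1:195074315-195074349 (-), 72.1 Mb from the Ndn site. RefSeq's annotation of a later assembly puts Snurf and Ndn much closer together, so it is uncertain which copy the Snurf reads came from.

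Among 71 other genes with parent-of-origin expression described in mouse or rat, or lying beside such genes, 50 were in the files. They are called other imprinted genes for short, and whether they are imprinted in this tissue was not tested. In limma 0 of them were higher and 2 were lower at P under 0.01, against 0.278% of all gene totals in either direction. At P under 0.05, 3 passed, against 2.41%, and 0 had an adjusted P under 0.1, against 0.00555%. edgeR also called 2 at P under 0.01, both lower, against 0.30% of all gene totals. Their median log2 fold change was 0.08, against 0.05 over all gene totals. The list was made with earlier results of these data known. It includes Th, whose site the paper had reported as lower in these libraries. The counts of called genes are therefore not independent of that report.

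The 2 genes that passed both make dopamine. Th, which encodes tyrosine hydroxylase, the rate-limiting enzyme of dopamine synthesis, had totals of 373, 287, 267 and 292 in air controls and 72.0, 99.0, 124 and 173 in cannabis rats. Its means were 305 ± 46.6 and 117 ± 42.9 (SD, n = 4 each), and the total fell by 1.43 on the log2 scale, with P = 9.28e-05 and an adjusted P of 0.557 in limma and P = 0.0286 by exact permutation. Ddc encodes the decarboxylase that follows it in the pathway, and it had totals of 151, 120, 165 and 161 in air controls and 90.7, 107, 70.8 and 71.4 in cannabis rats. Its means were 149 ± 20.5 and 85.0 ± 17.3 (SD, n = 4 each), and it fell by 0.81 on the log2 scale, with P = 0.0031 and an adjusted P of 0.999 in limma and P = 0.0286 by exact permutation. In limma, Ddc was not past the threshold without air control replicate 3 (log2 fold change -0.76), without cannabis replicate 3 (-0.74) or without cannabis replicate 5 (-0.74). It was likewise not past it without both air control replicates 1 and 4 (-0.74), without a mean-variance trend (-0.81) or with a replicate block (-0.70). Its direction was the same in each. The groups did not overlap in either gene, and the same held for 1.98% of all gene totals. Both genes are described as imprinted only in certain tissues. The midbrain dopamine markers without Th summed over 5 genes to 407 to 547 in air controls and to 107 to 192 in cannabis rats. Of the 6 listed genes with rows, Th included, 3 were lower at P under 0.01 in limma. Over all gene totals, 0.278% passed in either direction. The marker list includes Slc6a3, En1 and Th, whose sites the paper had reported as lower in these same libraries. The count is therefore not independent of the paper's results. Pitx3 was at 0 in some library. The part of neighbouring tissue in the change of Th and Ddc was not tested.

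The remaining genes of this list with a mean total of at least 200 normalized counts did not pass the test. Usp29, the neighbour of Peg3, had 565 ± 64.1 in air controls and 631 ± 129 in cannabis rats (SD, n = 4 each). Ube3a, the ubiquitin ligase lost in Angelman syndrome, had 1453 ± 93.5 and 1309 ± 156, with a log2 fold change of -0.16 ± 0.18 (SE). Nap1l5, a gene of the nucleosome assembly protein family, had 2864 ± 802 and 3555 ± 565, a log2 fold change of 0.34 ± 0.23 (SE), and Nap1l4 of the same family had 602 ± 144 and 661 ± 118. Rasgrf1, an exchange factor for Ras in neurons, had 406 ± 191 and 533 ± 134, and like Ndn and Impact it was lowest in air control replicate 4 and highest in cannabis replicate 2. Copg2, a subunit of the coat of transport vesicles, was at 8196 in air control replicate 1 and at 2243 to 4372 in the other libraries. Cd81, a tetraspanin, Pde4d, a cAMP phosphodiesterase, Trappc9, a subunit of a vesicle tethering complex, and Zdbf2 had log2 fold changes between -0.28 and 0.20.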

How the data were processed

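Hypothalamic RNA of 4 cannabis-exposed and 4 air-treated rats was sequenced by WTTS-Seq. The authors removed low-quality reads (FASTX Toolkit) and the Ts at read starts, used TMAP to map to Rnor 6.0, clustered read ends into APA sites and assigned genes with Cuffcompare. The unit is a signal: the authors deposited normalized counts per site, that is, reads divided by the DESeq2 size factor of each library, without pooling replicates. Whole reads were recovered from the step between values (0.664 to 1.99 normalized counts per read), and 100.0% of values were whole within 0.01 reads. Depth was 1159811 to 3706778 reads per library. Wilson intervals cover counting error only.

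All 98356 sites, 18003 gene totals and 57287 site shares were tested with limma 3.58.1 (R 4.3.3; lmFit, and eBayes with a trend) on log2(normalized count + 1), cannabis against air control, without covariates. This scale understates changes at low counts. A share was the log2 ratio of (site + 1) to (other sites + 1). Calls were made at P under 0.01, and Benjamini-Hochberg adjustment ran over all features with a threshold of 0.1. Exact permutation tests were two-sided. Nothing states whether libraries were prepared together, and P values cover only the spread between these libraries. In limma, SEs, intervals and P values rest on a variance that eBayes moderates towards a trend over all features tested. They therefore do not measure a gene's own spread alone. Alternatives were edgeR 4.0.16 on the recovered reads, a replicate block, each library left out, a pseudocount of 0.5 or 5, a filter keeping means from 10 upwards, equal totals, no trend, an arcsine share, and, chosen after seeing the data, leaving out both air control replicates 1 and 4.

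The members and lists were chosen with earlier results of these data known. All members were named, with their most read sites, sites at P under 0.01 in level or share, the 3 sites of mean at least 10 with the log2 fold changes farthest from 0, and, of the other imprinted genes, those at P under 0.01 or with a mean of at least 200. Sites are numbered by mean level within a gene. Site positions and location classes came from the study's site table, matched by symbol and values, and 7 of the 49 member sites had one. RefSeq (GRCr8) was used for names and neighbours only. Python 3.11.15, pandas 2.3.3 and scipy 1.17.1 did the other steps.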

Additional observations from a re-analysis of the deposited data

Results flagged for a closer look

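In 6 of the 74 groups of 4 libraries examined, 1 library lay far from the others of its group, by Dixon's criterion at the 95% level. Chance alone flags about 1 in 20 independent groups. The groups here share genes and libraries, and some were chosen by their values, so 6 of 74 cannot be set against that rate. Of the 6, 4 were high values in air control replicate 1. The Dlk1 total was 145 there and 59.6 to 65.8 in the other air controls. Peg3 site 4 was at 275 and at 21.8 to 51.7 in the others. Impact site 2 was at 79.0 and at 5.37 to 9.93, and Impact site 3 was at 77.5 and at 4.70 to 9.93. The share of Nnat site 1 was 94.8% in air control replicate 2 and 98.8% to 99.1% in the other air controls. Snurf site 2 was at 38.9 in air control replicate 3 and at 55.6 to 57.8 in the others. Causes were not tested. Peg3 site 4 and Impact site 2 were added to the examined values after they were seen. Snurf site 2 was likewise chosen after its values were seen, and Impact site 3 was named for its log2 fold change.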

How the results depend on the processing

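The 37 single values were each computed under the alternative settings, which gave 589 results. Of these results, 517 kept their direction and their side of the threshold and 51 changed direction. A further 16 were no longer past the threshold and 5 came to pass it. Library numbers were not treated as pairs in the main fit. The correlations of deviations over gene totals were -0.23, 0.09 and -0.07 for replicates 1, 2 and 3, under the limit of 0.1 set for pairing. Such correlations cannot show whether the samples were handled in pairs. With the replicate block, 1 member site passed in level (Nnat site 2), against 229 of all 98356 sites. In share 0 passed, against 145 of 57287, and 1 other imprinted total passed (Th), against 24 of 18003 totals. The block turned the log2 fold change of Impact to -0.15, Snurf to -0.27, Peg3 site 1 to 0.37, Gnas site 3 to 0.27 and the share of Gnas site 1 to 0.011. Leaving out 1 library at a time gave 0 to 1 member totals, 0 to 1 member site levels, 0 to 1 member shares and 1 to 2 other imprinted totals past the threshold. Over all features, 30 to 90 of 18003 totals, 227 to 617 of 98356 site levels and 157 to 391 of 57287 shares passed in these fits. Without a trend 1 member site level passed (Peg3 site 15), against 444 of all 98356 sites. With a pseudocount of 5, a mean of at least 10, an arcsine share, or without both air control replicates 1 and 4, 0 member shares passed. Over all shares, 182, 22 (of 10252 tested), 287 and 119 passed in these fits, in that order. With the last setting 1 other imprinted total passed, against 21 of 18003 totals. Snurf site 2 passed P under 0.01 only with a mean of at least 10 in limma, a fit in which 44 of 22164 sites passed. edgeR turned Magel2 to -0.082 and Gnas site 3 to 0.14.

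Without both air control replicates 1 and 4 the direction changed for the totals of Peg3 (0.21), Ndn (-0.19), Magel2 (-0.38), Dlk1 (0.18), Impact (-0.017) and Snurf (-0.18), for the levels of Peg3 site 1 (0.54), Peg3 site 4 (0.068), Gnas site 3 (0.19), Impact site 1 (-0.12), Impact site 2 (0.72) and Impact site 3 (0.32), and for the shares of Gnas site 1 (0.021), Impact site 1 (-0.95) and Impact site 3 (0.35). With 1 library left out, log2 fold changes of totals ranged from 0.013 to 0.46 for Ndn, 0.085 to 0.42 for Gnas, -0.34 to -0.0016 for Peg3, -0.17 to -0.049 for Nnat, -0.16 to 0.34 for Magel2, -0.36 to 0.25 for Dlk1, -0.16 to 0.46 for Impact, -0.073 to 0.24 for RGD1566401, -0.093 to 0.41 for Snurf and 0.45 to 0.80 for Grb10. Levels ranged from 0.015 to 0.47 for Gnas site 1, -1.46 to -0.073 for Peg3 site 10, -0.31 to 0.30 for Peg3 site 1, -0.90 to 0.30 for Peg3 site 4, -0.84 to 0.19 for Dlk1 site 1, -0.49 to 0.23 for Gnas site 3, -0.73 to 0.49 for Impact site 2 and -1.25 to 0.010 for Impact site 3. Shares ranged from -0.10 to 0.60 for Peg3 site 1, -1.21 to 0.045 for Peg3 site 10, -0.19 to 0.65 for Nnat site 1, -0.20 to 0.16 for Gnas site 1 and -0.25 to 1.27 for Impact site 1. The causes were not tested.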
